A study of Mus musculus with 4 samples.

Results

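Glycolysis and hypoxia genes were described in mouse liver tumour-initiating stem-like cells, a cultured population isolated from liver tumours of C57BL/6 mice. The set held 35 genes, taken by symbol from the 23359 rows of a deposited expression table: the enzymes that turn glucose into pyruvate and lactate, the transporters for glucose and lactate, and genes of the oxygen-sensing pathway of hypoxia-inducible factor 1 (HIF1). All 35 symbols were found. One library came from cells given all-trans retinoic acid (ATRA, which activates retinoic acid receptors) at 5 µg/ml, 1 from cells given suberoylanilide hydroxamic acid (SAHA, which blocks histone deacetylase enzymes) at 0.5 µg/ml, 1 from cells given ATRA and SAHA together at these doses, and 1 from cells given vehicle. Treatment with ATRA, SAHA or both lasted 16 hours, and the labels give no time for vehicle. All 4 cultures grew in a medium with 10% fetal bovine serum, mouse EGF and dexamethasone. The sources used here state no oxygen tension, and no age, sex or number of animals behind the cultures.

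Glycolysis splits glucose into pyruvate, which is either reduced to lactate and exported or passed into mitochondria, and many tumour cells favour lactate. HIF1 is a transcription factor whose alpha subunit is hydroxylated by oxygen-dependent prolyl hydroxylases and then destroyed, so that it accumulates when oxygen is low. Its targets include most glycolytic enzymes, the kinase that shuts pyruvate dehydrogenase, angiogenic factors and mitophagy receptors.

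Levels are in FPKM, a fragment count divided by transcript length and library size, so they can be compared between genes. Differences are log2 ratios of FPKM + 1, and a gene was called higher or lower once it differed by at least 1, which is 2-fold on that scale. The scale understates differences of genes near 1 FPKM. With 1 library in each group there is no replicate, so no difference has an error or a test. In such bulk RNA, fewer cells of a type and less RNA per cell cannot be told apart. Genes that averaged 1 FPKM or more are called counted genes: 8616 of the table and 32 of the 35. Adm, Pfkfb3 and Car9 fell below it, with Car9 just outside at a mean of 0.575 FPKM and Ankrd37 just inside at 1.04 FPKM.

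The libraries were alike in estimated depth, at 99.0 to 106 fragments for 1 FPKM over 1 kilobase. They differed in composition: a single row, Gm20594, took up 33.9% of the summed FPKM with SAHA, against 10.3% to 18.0% in the other libraries. The median log2 ratio of the counted genes was -0.12 for SAHA against vehicle and 0.04 for ATRA+SAHA against vehicle. Setting the libraries to the same total without the 10 highest rows and small RNAs, called total scaling here, multiplied the SAHA library by 1.38 and the others by 0.867 to 1.003, and it moved the SAHA median to 0.21. Of 8 hepatocyte markers, 0 were counted, with summed levels of 0.194 to 0.450 FPKM, so defining hepatocyte RNA was nearly absent. Of 5 macrophage markers 1 was counted (Cd68), and the list summed to 2.46, 5.31 and 4.35 FPKM with ATRA, SAHA and ATRA+SAHA, against 1.95 FPKM with vehicle. Of 5 stellate cell or fibroblast markers 2 were counted (Acta2 and Des), and the list summed to 36.6, 22.5 and 26.3 FPKM with ATRA, SAHA and ATRA+SAHA, against 38.9 FPKM with vehicle. Of 4 cholangiocyte markers 2 were counted, of 5 endothelial markers 1, and of the lymphocyte and erythroid markers 0, with summed levels of at most 6.36 FPKM per list. The part of these markers in the differences below was not tested.

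The promoters of several of these genes carry the short core of the hypoxia response element, which HIF1 binds, and 4 are shown because the genes were among those lower with SAHA or with both compounds. Each is the 250 bases before the start of the transcript in RefSeq on GRCm38.p6, the assembly of mm10, written from 5′ to 3′. Capitals mark ACGTG or GCGTG on either strand. The palindrome CACGTG holds ACGTG on both strands, counts as 2 matches here and is also the E-box bound by Myc family factors.
Ldha promoter, chr7:46845554-46845803, plus strand: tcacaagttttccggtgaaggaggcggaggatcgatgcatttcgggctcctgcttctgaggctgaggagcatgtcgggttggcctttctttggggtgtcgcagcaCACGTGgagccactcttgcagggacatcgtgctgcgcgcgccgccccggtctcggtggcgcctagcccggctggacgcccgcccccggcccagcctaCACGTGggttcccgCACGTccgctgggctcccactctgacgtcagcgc
Slc16a1 promoter, chr3:104638414-104638663, plus strand: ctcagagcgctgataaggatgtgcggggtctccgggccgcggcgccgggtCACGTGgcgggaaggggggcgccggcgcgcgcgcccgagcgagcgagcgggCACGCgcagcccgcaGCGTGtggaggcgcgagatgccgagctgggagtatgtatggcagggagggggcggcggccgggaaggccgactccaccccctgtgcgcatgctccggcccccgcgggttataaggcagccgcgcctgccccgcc
Hif1a promoter, chr12:73907617-73907866, plus strand: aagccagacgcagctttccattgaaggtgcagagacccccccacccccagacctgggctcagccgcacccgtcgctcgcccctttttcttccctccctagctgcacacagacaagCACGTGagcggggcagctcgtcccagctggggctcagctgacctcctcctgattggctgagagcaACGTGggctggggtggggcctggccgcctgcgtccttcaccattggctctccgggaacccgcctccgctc
Vegfa promoter, chr17:46032378-46032627, minus strand: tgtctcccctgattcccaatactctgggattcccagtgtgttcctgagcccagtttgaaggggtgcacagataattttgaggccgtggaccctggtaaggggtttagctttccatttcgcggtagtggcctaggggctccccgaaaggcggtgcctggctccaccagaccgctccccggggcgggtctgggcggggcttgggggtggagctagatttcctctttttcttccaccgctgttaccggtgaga
Ldha had 5 matches, which include 2 copies of CACGTG, and Slc16a1 had 4 and Hif1a 3, each with 1 copy of CACGTG. Vegfa had 0 in this window. A promoter could be matched for 33 of the 35 genes (Bnip3l and Ndrg1 are named only). ACGTG was present in 17 of the 33, or 51.5%, against 23.6% of the 6317 counted genes of the whole table with a promoter of the same length. Either core was present in 26 of 33, or 78.8%, against 61.2% of those genes. Of the 10 matched genes that were lower with SAHA or with both compounds, 6 held ACGTG, against 11 of the other 23. A match describes letters and not a bound site.

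Transcripts of the glycolytic chain were abundant: Pkm, the pyruvate kinase gene, was at 286, 207 and 190 FPKM with ATRA, SAHA and ATRA+SAHA, against 283 FPKM with vehicle. Gapdh, Ldha and Aldoa were next in the vehicle library, at 132, 142 and 120 FPKM. In the deposited scale, the 14 enzyme genes from hexokinase to pyruvate kinase summed to 908, 665 and 624 FPKM with ATRA, SAHA and ATRA+SAHA, against 828 FPKM with vehicle. The direction of this sum depends on the scaling. Total scaling multiplies the ATRA, SAHA and ATRA+SAHA libraries by 0.891, 1.38 and 0.867, and vehicle by 1.003. That puts the SAHA sum above vehicle and the ATRA sum below it, while the ATRA+SAHA sum stays below. The sum includes the Eno1 row, whose value is uncertain as described below. The HIF1 targets of the set ranged widely in level. Car9, a surface carbonic anhydrase, was low, at 0.641, 0.459 and 0.237 FPKM with ATRA, SAHA and ATRA+SAHA, against 0.962 FPKM with vehicle. Adm, the gene of the vasodilator adrenomedullin, was at 0.171, 0.0802 and 0.0810 FPKM in these 3 treated libraries, against 0.150 FPKM with vehicle. Others were well above these with vehicle, such as Bnip3 (18.9 FPKM), Bnip3l (14.4 FPKM), Ndrg1 (11.3 FPKM) and Vegfa (9.72 FPKM). The oxygen state of the cultures was not tested.

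**Figure D1:**
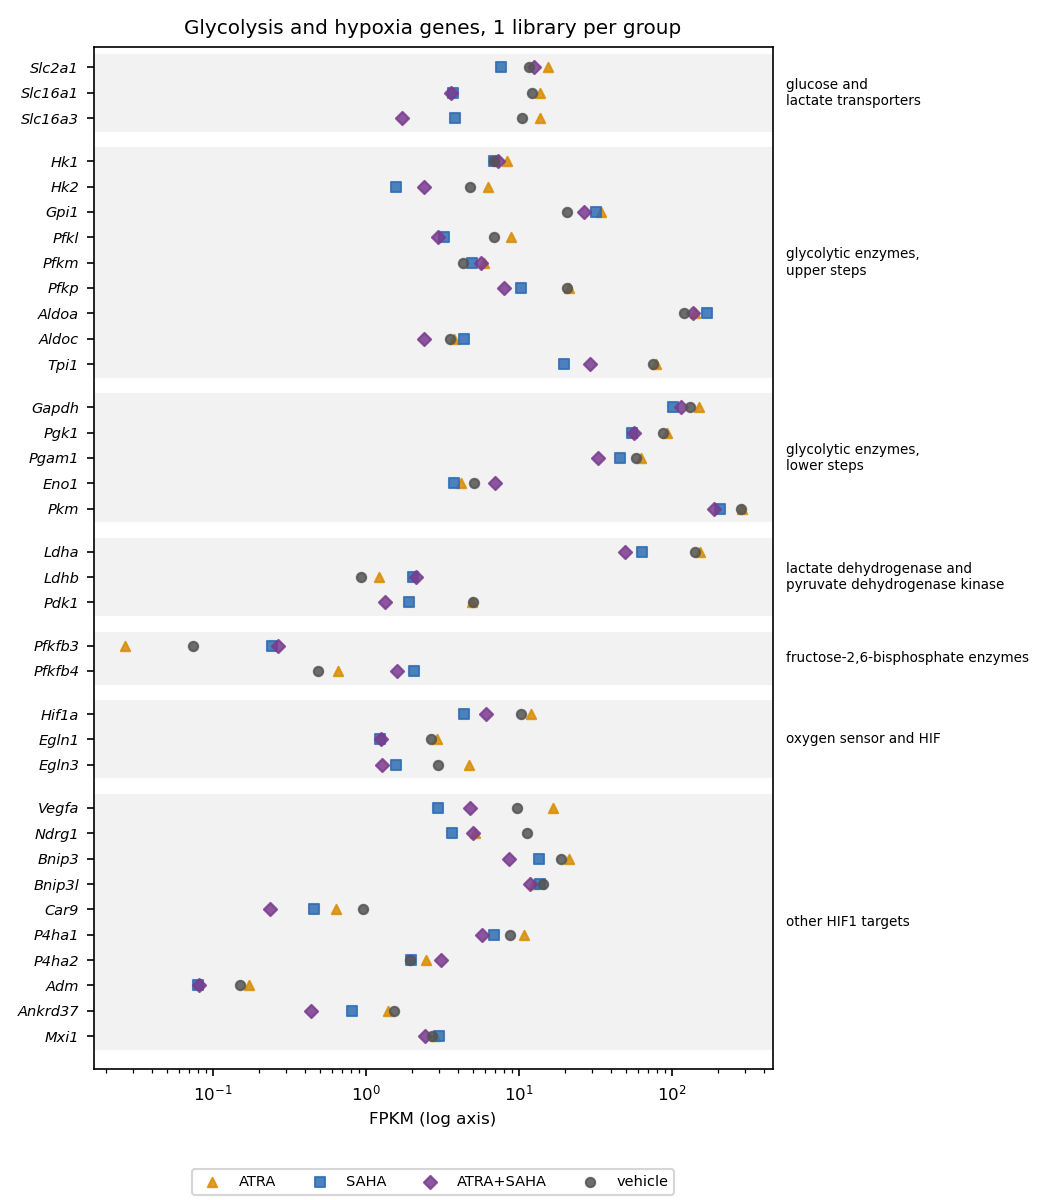
FPKM on a log axis for the 35 genes, grouped by role, with 1 point for each of the 4 libraries (ATRA, SAHA, ATRA+SAHA, vehicle). For most genes the ATRA and vehicle points lie close together, and for Slc16a1, Slc16a3, Hk2, Tpi1, Ldha and Pdk1 the SAHA and ATRA+SAHA points lie well to their left.

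The next question was what each compound did to the transporters at the ends of the pathway. Both lactate transporter genes were lower with SAHA and with ATRA+SAHA. Slc16a1, which encodes the monocarboxylate transporter MCT1 (chromosome 3, 104638668 to 104658462, mm10), was at 13.7, 3.69 and 3.59 FPKM with ATRA, SAHA and ATRA+SAHA, against 12.1 FPKM with vehicle. These are log2 ratios of 0.16, -1.49 and -1.52, and both libraries with SAHA stood at about the same level, 30.4% and 29.6% of vehicle. Slc16a3, which encodes the lactate exporter MCT4 (chromosome 11, 120948484 to 120959000), was at 13.8, 3.85 and 1.72 FPKM with ATRA, SAHA and ATRA+SAHA, against 10.5 FPKM with vehicle. Its level with both compounds, 16.3% of vehicle, was the lowest relative level among the counted members. Slc2a1, the glucose transporter GLUT1 gene, did not pass the 2-fold mark: it was at 15.6, 7.62 and 12.5 FPKM with ATRA, SAHA and ATRA+SAHA, against 11.6 FPKM with vehicle. With ATRA+SAHA, Slc2a1 was at 108% of vehicle in the deposited scale and at a log2 ratio of -0.10 under total scaling. Slc16a1 and Slc16a3 stayed past the mark with ATRA+SAHA under each. The SAHA call of Slc16a3 was lost under total scaling (-0.88).

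Among the 9 enzyme genes of the upper steps, from glucose to triose phosphate, Tpi1 differed the most. Tpi1, the triosephosphate isomerase gene (chromosome 6, 124808941 to 124814296, a locus shared in the table with Spsb2), was at 78.7, 19.8 and 29.4 FPKM with ATRA, SAHA and ATRA+SAHA, against 75.0 FPKM with vehicle. Its log2 ratios were 0.07, -1.87 and -1.32, and the neighbour Spsb2 stayed at or below 1.82 FPKM in all 4 libraries. Hk2, the inducible hexokinase of tumours, was at 6.27, 1.57 and 2.40 FPKM with ATRA, SAHA and ATRA+SAHA, against 4.76 FPKM with vehicle, and passed the mark with SAHA alone (-1.16, or -0.87 under total scaling, which ends the call). Hk1, the constitutive hexokinase, was at 8.41, 6.89 and 7.28 FPKM with ATRA, SAHA and ATRA+SAHA, against 6.92 FPKM with vehicle. The share of Hk2 in the hexokinase sum was thus 42.7%, 18.6% and 24.8% with ATRA, SAHA and ATRA+SAHA, against 40.8% with vehicle.

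Phosphofructokinase, which commits sugar to glycolysis, has 3 subunit genes, and they did not move together. Pfkp, the platelet subunit gene, was at 21.1, 10.3 and 7.98 FPKM with ATRA, SAHA and ATRA+SAHA, against 20.7 FPKM with vehicle. It was past the mark with both compounds (-1.27) and just short of it with SAHA (-0.94), and the table shares its locus with Pitrm1, which went the other way at 17.4 FPKM with SAHA against 6.52 FPKM with vehicle. Pfkl, the liver subunit gene, was at 8.85, 3.24 and 2.98 FPKM with ATRA, SAHA and ATRA+SAHA, against 6.92 FPKM with vehicle, and its ratio of -0.99 with both compounds lay just outside the mark. Pfkm, the muscle subunit gene, which shares its locus with Senp1, was at 5.93, 4.92 and 5.70 FPKM with ATRA, SAHA and ATRA+SAHA, against 4.31 FPKM with vehicle. The muscle subunit made up 16.5%, 26.7% and 34.2% of the phosphofructokinase sum with ATRA, SAHA and ATRA+SAHA, against 13.5% with vehicle.

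The remaining upper-step genes stayed within the 2-fold mark in the deposited scale. Gpi1, glucose phosphate isomerase, was at 34.3, 32.0 and 26.5 FPKM with ATRA, SAHA and ATRA+SAHA, against 20.6 FPKM with vehicle, so that all 3 treated libraries were above vehicle. Its SAHA ratio of 0.61 became 1.05 under total scaling, which is past the mark. Aldoa, the main aldolase gene, was at 142, 169 and 138 FPKM with ATRA, SAHA and ATRA+SAHA, against 120 FPKM with vehicle. Aldoc, the minor aldolase, lay between 2.42 and 4.41 FPKM in the 4 libraries. Aldolase and triosephosphate isomerase act on successive steps, and with SAHA their transcripts stood at 140% and 26.4% of vehicle.

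The 5 genes of the lower steps stayed within the 2-fold mark with SAHA, and lay below vehicle in the deposited scale. That direction depends on the scaling: under total scaling the SAHA ratio was 0.07 for Gapdh, 0.11 for Pgam1, 0.00 for Pkm and 0.01 for the Eno1 row, and it stayed below 0 for Pgk1 (-0.20). Gapdh, the triose phosphate dehydrogenase often used as a reference transcript, was at 151, 101 and 115 FPKM with ATRA, SAHA and ATRA+SAHA, against 132 FPKM with vehicle. Pgk1, phosphoglycerate kinase, was at 93.7, 55.3 and 56.3 FPKM with ATRA, SAHA and ATRA+SAHA, against 87.1 FPKM with vehicle. Pgam1, phosphoglycerate mutase, was at 63.0, 45.8 and 33.0 FPKM with ATRA, SAHA and ATRA+SAHA, against 58.0 FPKM with vehicle. Pkm completed the group with log2 ratios of 0.02, -0.45 and -0.57 for ATRA, SAHA and ATRA+SAHA. Pgk1 and Gapdh have processed copies in the mouse genome that can take or lend reads. The retrogene Pgk2, known from testis, was at 56.1, 33.7 and 32.6 FPKM with ATRA, SAHA and ATRA+SAHA, against 50.8 FPKM with vehicle. That is 0.599, 0.610 and 0.579 times Pgk1 in the treated libraries, against 0.583 times with vehicle, so the split of reads between both rows is uncertain.

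Enolase needs a separate reading. The Eno1 row was at only 4.17, 3.75 and 6.99 FPKM with ATRA, SAHA and ATRA+SAHA, against 5.11 FPKM with vehicle, although Pgam1 and Pkm, before and after it in the pathway, were at 58.0 and 283 FPKM with vehicle. The row has the locus of Eno1, but its description names Eno1b, a retrotransposed copy, so its value cannot be taken as the level of Eno1. Eno3, the muscle enolase, was at 22.0, 3.18 and 4.97 FPKM with ATRA, SAHA and ATRA+SAHA, against 24.6 FPKM with vehicle, a log2 ratio of -2.61 for SAHA. Eno2, the neuronal enolase, lay between 1.01 and 1.83 FPKM.

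Among the 3 genes that steer pyruvate towards lactate or mitochondria, Ldha and Pdk1 were lower in both libraries with SAHA. Ldha, the lactate dehydrogenase subunit that favours lactate formation (chromosome 7, 46845804 to 46855627), was at 152, 63.9 and 49.7 FPKM with ATRA, SAHA and ATRA+SAHA, against 142 FPKM with vehicle. Ldhb, the subunit that favours pyruvate, was at 1.22, 2.03 and 2.12 FPKM with ATRA, SAHA and ATRA+SAHA, against 0.936 FPKM with vehicle. Pdk1, the kinase that inactivates pyruvate dehydrogenase (chromosome 2, 71873272 to 71903858), was at 4.93, 1.91 and 1.33 FPKM with ATRA, SAHA and ATRA+SAHA, against 5.01 FPKM with vehicle. Ldha and Pdk1 were past the mark in both libraries with SAHA, at -1.14 and -1.49 for Ldha and at -1.05 and -1.37 for Pdk1. The calls with ATRA+SAHA held under every scaling, and those with SAHA did not: Ldha was at -0.96 with equal upper quartiles and -0.69 under total scaling, and Pdk1 at -0.93 after median centring, -0.92 with equal upper quartiles and -0.73 under total scaling. Ldhb did not pass on this scale, with ratios of 0.65 and 0.69, yet its FPKM was 2.17 and 2.26 times that of vehicle. Ldhb made up 0.797%, 3.08% and 4.09% of the lactate dehydrogenase sum with ATRA, SAHA and ATRA+SAHA, against 0.656% with vehicle, so Ldha remained the main subunit in every library.

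**Figure D2:**
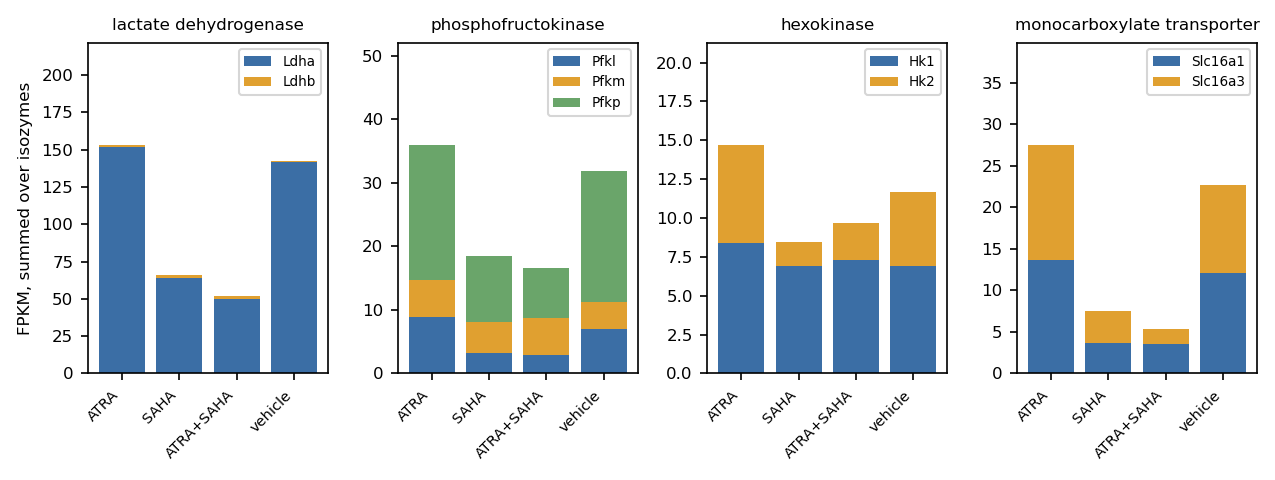
FPKM of the isozyme or transporter genes of 4 steps, stacked, in the ATRA, SAHA, ATRA+SAHA and vehicle libraries, with a separate linear axis from 0 for each family. The lactate dehydrogenase sum was 65.9 FPKM with SAHA and 51.9 FPKM with ATRA+SAHA, against 143 FPKM with vehicle, and the shares within phosphofructokinase and hexokinase shifted towards Pfkm and Hk1.

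Of the genes for the bifunctional enzymes that set fructose 2,6-bisphosphate, the activator of phosphofructokinase, Pfkfb4 was the single counted member higher than vehicle past the mark in the deposited scale. Its mean of 1.21 FPKM reached the filter only through the libraries with SAHA, where it was high. The filter thus favours such a call, which is no separate evidence of a difference. It was at 0.660, 2.07 and 1.61 FPKM with ATRA, SAHA and ATRA+SAHA, against 0.485 FPKM with vehicle, and its log2 ratio was 1.05 with SAHA and 0.81 with both compounds. Pfkfb3 was not counted, at 0.0265, 0.245 and 0.268 FPKM with ATRA, SAHA and ATRA+SAHA, against 0.0738 FPKM with vehicle.

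The 3 oxygen-sensing genes lay below vehicle with SAHA, 1 of them past the mark. Hif1a, the regulated HIF1 subunit (chromosome 12, 73907867 to 73947530), was at 11.9, 4.40 and 6.11 FPKM with ATRA, SAHA and ATRA+SAHA, against 10.3 FPKM with vehicle, and passed the mark with SAHA alone (-1.06). That call was lost under each of 3 scalings, at -0.94 after median centring, -0.91 with equal upper quartiles and -0.68 under total scaling. Egln1, the main prolyl hydroxylase of HIF, was at 2.91, 1.23 and 1.25 FPKM with ATRA, SAHA and ATRA+SAHA, against 2.65 FPKM with vehicle. Egln3, a hydroxylase that HIF itself induces, was at 4.72, 1.57 and 1.28 FPKM with ATRA, SAHA and ATRA+SAHA, against 2.98 FPKM with vehicle. The subunit and both hydroxylases lay below vehicle in both libraries with SAHA under every scaling. With ATRA they lay above it in the deposited scale, while Egln1 was at -0.03 under total scaling. Protein levels, which carry most of the control of HIF1, were not measured.

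The other HIF1 targets were mixed. Vegfa, the angiogenic growth factor gene (chromosome 17, 46016993 to 46032377), was at 16.8, 2.98 and 4.77 FPKM with ATRA, SAHA and ATRA+SAHA, against 9.72 FPKM with vehicle. It had the highest ratio to vehicle of the 32 counted genes with ATRA (0.73) and was among the 3 lowest with SAHA (-1.43). Ndrg1, a stress-induced gene (chromosome 15, 66929318 to 66969641), was at 5.15, 3.63 and 5.03 FPKM with ATRA, SAHA and ATRA+SAHA, against 11.3 FPKM with vehicle. It was the only member counted as lower in all 3 comparisons with vehicle, although the ATRA value of -1.001 lies on the mark.

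The mitophagy receptor genes differed from each other. Bnip3 was at 21.2, 13.45 and 8.67 FPKM with ATRA, SAHA and ATRA+SAHA, against 18.9 FPKM with vehicle, and was past the mark with both compounds (-1.04). Its relative Bnip3l stayed between 11.8 and 14.4 FPKM. Ankrd37, a small ankyrin repeat gene, was at 1.40, 0.815 and 0.436 FPKM with ATRA, SAHA and ATRA+SAHA, against 1.52 FPKM with vehicle, or 28.8% of vehicle with both compounds. Among collagen prolyl hydroxylase subunit genes, P4ha1 was at 10.8, 6.90 and 5.78 FPKM with ATRA, SAHA and ATRA+SAHA, against 8.71 FPKM with vehicle. P4ha2 lay between 1.95 and 3.12 FPKM with its highest value in the ATRA+SAHA library, and Mxi1, a Myc antagonist, lay between 2.45 and 3.03 FPKM.

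**Figure D3:**
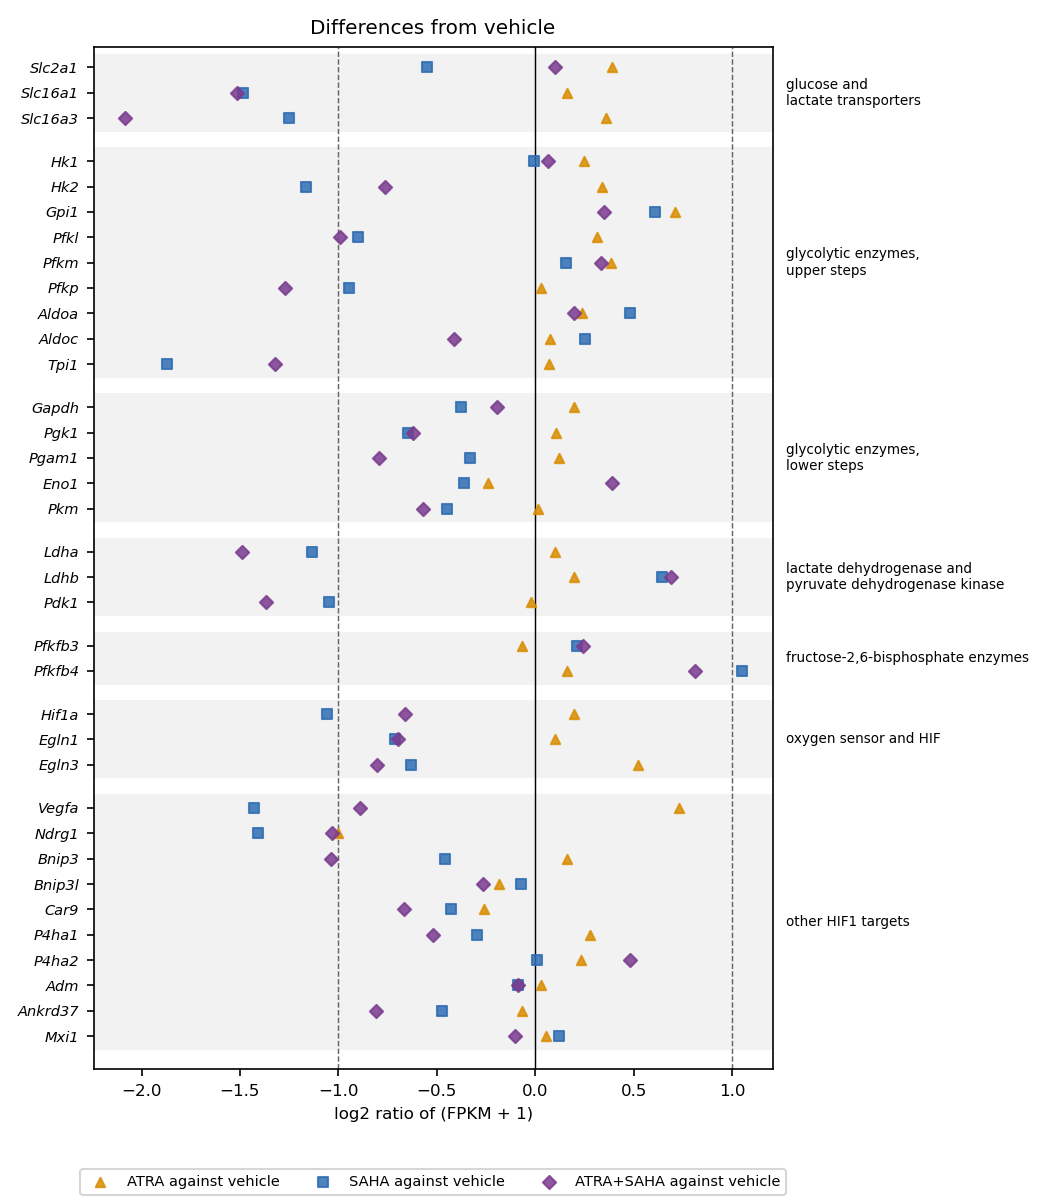
Log2 ratio of FPKM + 1 to vehicle for the 35 genes, grouped by role, for ATRA, SAHA and ATRA+SAHA, with dashed lines at -1 and 1. The ATRA points lie within 1 of 0 except Ndrg1 on the line at -1, and the SAHA and ATRA+SAHA points past the left line belong to transporters, Hk2, Pfkp, Tpi1, Ldha, Pdk1, Hif1a, Vegfa, Ndrg1 and Bnip3.

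Counted together, the set was little changed by ATRA, and a part of it was lower in both libraries with SAHA. With ATRA against vehicle, 0 of 32 were higher, against 0.917% of all counted genes, and 1 was lower, against 1.2%. With ATRA, 27 of the 32 ratios were above 0 with a median of 0.16, while 4265 of all 8616 counted ratios were. That lean depends on the scaling: under total scaling, 17 were above 0 and the median was 0.01. With SAHA against vehicle, 9 of 32 (28.1%) were lower, against 16.0% of all counted genes, and 1 was higher, against 7.88%. The higher gene, Pfkfb4, was counted only through its levels in the libraries with SAHA. The median of the set was -0.47, beside -0.12 for all counted genes. With median centring 7 were lower and with equal upper quartiles 6, beside 13.4% and 13.3% of all counted genes. Under total scaling 4 were lower (Slc16a1, Tpi1, Vegfa and Ndrg1), beside 10.5% of all counted genes, and the medians were -0.09 for the set and 0.21 for all counted genes.

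With ATRA+SAHA against vehicle, 8 of 32 (25%) were lower, against 12.6% of all counted genes, and 0 were higher, against 11.1%. The median of the set was -0.64, beside 0.04 for all counted genes. Slc16a1, Slc16a3, Tpi1, Ldha, Pdk1 and Ndrg1 were lower in both libraries with SAHA, and these comparisons share the vehicle library. The share of all counted genes lower in both was not computed, so this overlap is a description only. With a pseudocount of 0.1, 13 were lower and 2 higher, beside 18.0% lower and 17.2% higher among all counted genes at that setting.

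The comparison of SAHA added to ATRA does not use the vehicle library, but shares the ATRA+SAHA library with those above. With ATRA+SAHA against ATRA, 11 of 32 (34.4%) were lower, against 11.9% of all counted genes, and 0 were higher, against 10.5%. The 11 were Slc16a1, Slc16a3, Hk2, Pfkl, Pfkp, Tpi1, Ldha, Pdk1, Egln3, Vegfa and Bnip3. Slc16a3 had the largest difference, at 1.72 FPKM with ATRA+SAHA, against 13.8 FPKM with ATRA (-2.45).

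Adding ATRA to SAHA moved no gene of the set past the mark. With ATRA+SAHA against SAHA, 0 of 32 were higher, against 3.04% of all counted genes, and 0 were lower, against 0.929%. The median was -0.11, beside 0.14 for all counted genes. Slc16a3 was the lowest at 1.72 FPKM with ATRA+SAHA, against 3.85 FPKM with SAHA (-0.84), and the Eno1 row the highest (0.75). Slc2a1 (0.65), Tpi1 (0.55) and Vegfa (0.54) lay above 0 in the deposited scale, but were at 0.05, -0.09 and 0.01 under total scaling. Under that scaling 5 genes were lower, beside 4.82% of all counted genes. There 29 of 32 ratios were below 0 in place of 18, and the medians were -0.61 for the set and -0.33 for all counted genes.

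**Figure D4:**
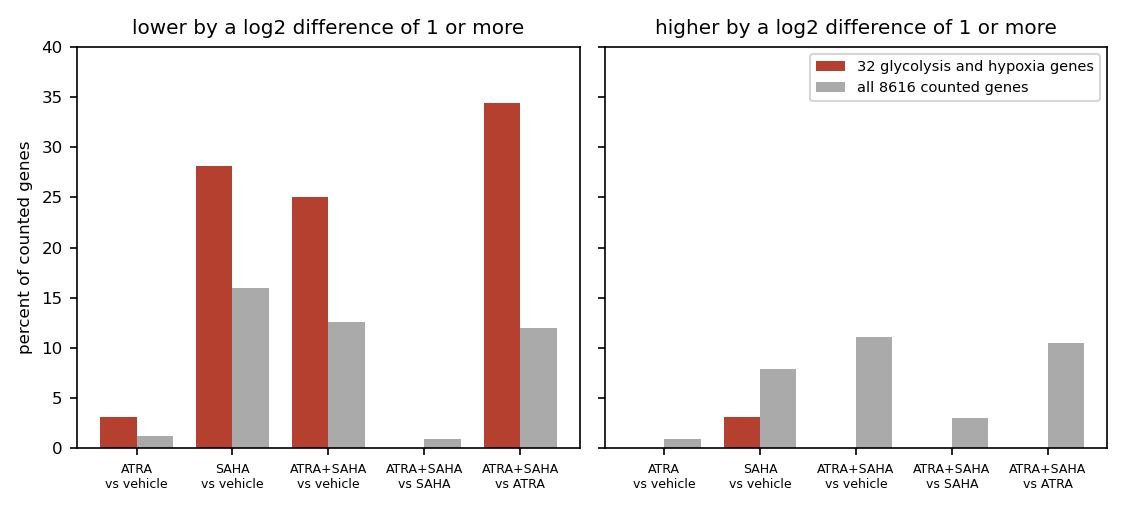
Percent of counted genes lower (left) and higher (right) by a log2 difference of 1 or more in 5 comparisons, for the 32 glycolysis and hypoxia genes and for all 8616 counted genes. In the comparisons of SAHA or ATRA+SAHA with vehicle and of ATRA+SAHA with ATRA, the share of the set that was lower is above that of all genes, and the share that was higher is below it.

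The departure from additivity is what remains of the log2 ratio of ATRA+SAHA to vehicle after subtracting the ratios of both single compounds. It was below 0 for 25 of 32 genes (78.1%), against 35.1% of all counted genes. Its medians were -0.20 for the set and 0.15 for all counted genes in the deposited scale, and -0.60 and -0.22 under total scaling. In the deposited scale the departure reached 1 or more for Ndrg1 (1.38), as for 4.69% of all counted genes. Each compound alone and both together gave Ndrg1 levels between 3.63 and 5.15 FPKM. The departure reached -1 or less for Slc16a3 (-1.20) in the deposited scale, as for 1.73% of all counted genes.

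**Figure D5:**
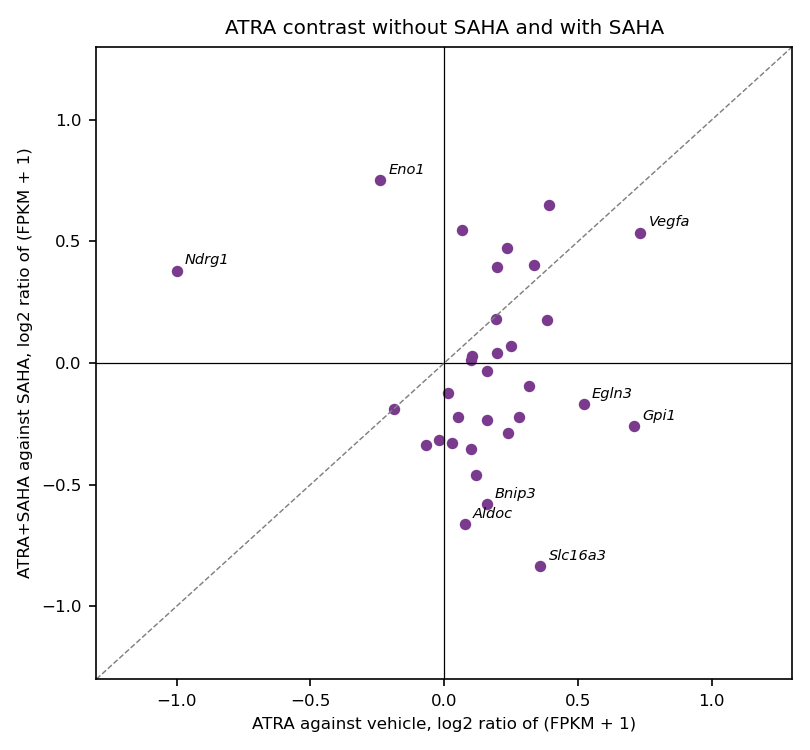
Log2 ratio of FPKM + 1 for ATRA+SAHA against SAHA (vertical axis) plotted over ATRA against vehicle (horizontal axis) for the 32 counted genes, which use separate libraries, with a dashed line where both are equal. In the deposited scale Ndrg1 (-1.001 and 0.38) lies far above the line and Slc16a3 (0.36 and -0.84) far below it.

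Genes around the set were taken from 9 pathway lists, whose counts are small and stand beside the shares of all counted genes. These shares were 7.88% higher and 16.0% lower with SAHA, and 11.1% higher and 12.6% lower with ATRA+SAHA. All list values are in the deposited scale. The calls of list genes were not followed under the other scalings, so those near the mark, such as Rbx1, Siah2 and Tceb2, may not hold there. Among the HIF subunits and oxygen-sensing genes, 10 of 15 were counted, and 3 were lower and 0 higher with SAHA, and 2 lower and 1 higher with ATRA+SAHA. The 3 lower with SAHA were Rbx1 (-1.07), Siah1a (-1.23) and Siah2 (-1.02). With ATRA+SAHA, the higher gene was Tceb2, elongin B of the complex that holds Vhl (1.07). The lower genes with ATRA+SAHA were Cited2, a competitor of HIF for its coactivator (-1.54), and Egln2 (-1.08). With SAHA alone, Cited2 (-0.74) and Egln2 (-0.80) were within the mark. Epas1, which encodes the HIF2 alpha subunit, was near 0, at 0.00747 to 0.0172 FPKM, so Hif1a was the expressed alpha subunit of these 2. Arnt, the partner subunit, was at 0.935, 0.768 and 1.77 FPKM with ATRA, SAHA and ATRA+SAHA, against 0.973 FPKM with vehicle. Vhl, which marks hydroxylated HIF for destruction, lay between 1.21 and 1.80 FPKM. Egln2, the remaining Egln hydroxylase, was at 3.33, 1.37 and 0.951 FPKM with ATRA, SAHA and ATRA+SAHA, against 3.13 FPKM with vehicle. Hif1an, the asparagine hydroxylase of HIF, was at 0.311, 0.973 and 0.840 FPKM with ATRA, SAHA and ATRA+SAHA, against 0.349 FPKM with vehicle.

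Of 24 counted further HIF targets, 6 were lower with SAHA and 6 were lower with ATRA+SAHA, with medians of -0.33 and -0.53. Mif, a cytokine gene, was at 191, 53.7 and 70.1 FPKM with ATRA, SAHA and ATRA+SAHA, against 142 FPKM with vehicle. Ero1l, an oxidase of the endoplasmic reticulum, was at 19.2, 7.63 and 6.63 FPKM with ATRA, SAHA and ATRA+SAHA, against 17.3 FPKM with vehicle. Both genes were past the mark in each library with SAHA.

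Genes that carry pyruvate into mitochondria were mixed. Of 12 counted genes of pyruvate entry and pyruvate dehydrogenase, 2 were higher and 0 lower with SAHA, and 3 were higher and 0 lower with ATRA+SAHA, with a median of 0.41 in each. These are 16.7% and 25% of the list. Mpc1, a subunit of the mitochondrial pyruvate carrier (in a locus shared with Sft2d1), was at 6.26, 16.9 and 20.5 FPKM with ATRA, SAHA and ATRA+SAHA, against 6.60 FPKM with vehicle. Pdhb, a pyruvate dehydrogenase subunit gene, was at 12.4, 23.8 and 32.5 FPKM with ATRA, SAHA and ATRA+SAHA, against 12.0 FPKM with vehicle. Pcx, pyruvate carboxylase (its locus is shared with Lrfn4), was at 0.385, 6.04 and 7.33 FPKM with ATRA, SAHA and ATRA+SAHA, against 0.372 FPKM with vehicle. On the other side of vehicle, Pdha1, the catalytic subunit gene, was at 17.1, 10.3 and 11.1 FPKM with ATRA, SAHA and ATRA+SAHA, against 16.6 FPKM with vehicle. Of the other kinase genes, Pdk3 was at 1.92, 2.55 and 2.23 FPKM with ATRA, SAHA and ATRA+SAHA, against 2.29 FPKM with vehicle, which is above Pdk1 in both libraries with SAHA. Pdk2, not counted, was at 0.102, 0.463 and 0.556 FPKM with ATRA, SAHA and ATRA+SAHA, against 0.0752 FPKM with vehicle. Pdk4 stayed below 0.2 FPKM in all 4 libraries.

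All 18 genes of the tricarboxylic acid cycle were counted, of which 2 were higher and 1 lower with SAHA and 3 higher and 1 lower with ATRA+SAHA, with medians of 0.41 and 0.71. The higher genes are 11.1% and 16.7% of the list, near the shares of all counted genes, and the lower gene is 5.56%. Mdh2, mitochondrial malate dehydrogenase, was at 17.3, 36.7 and 49.7 FPKM with ATRA, SAHA and ATRA+SAHA, against 14.5 FPKM with vehicle. Suclg2, a succinyl-CoA ligase subunit gene, was at 11.4, 1.32 and 2.58 FPKM with ATRA, SAHA and ATRA+SAHA, against 9.45 FPKM with vehicle. In the pentose phosphate pathway, 1 of 9 counted genes (11.1%) was higher and 0 were lower in each comparison with vehicle. Of all counted genes, 0.917%, 7.88% and 11.1% were higher with ATRA, SAHA and ATRA+SAHA, and 1.2%, 16.0% and 12.6% were lower. The higher gene of the list was Taldo1, transaldolase, at 28.5, 29.8 and 44.0 FPKM with ATRA, SAHA and ATRA+SAHA, against 12.6 FPKM with vehicle.

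Of 10 counted genes of gluconeogenesis and glycogen, 1 was higher and 2 lower with SAHA, and 0 higher and 2 lower with ATRA+SAHA. Pck2, mitochondrial phosphoenolpyruvate carboxykinase, was at 18.5, 1.04 and 1.81 FPKM with ATRA, SAHA and ATRA+SAHA, against 16.0 FPKM with vehicle. Of 10 counted other glycolytic isozymes and transporters, 1 was higher and 1 lower with SAHA and with ATRA+SAHA, the lower gene being Eno3. The hexosamine list had 5 counted genes, with 0 past the mark with SAHA and 1 lower with ATRA+SAHA. In the list of regulators of glucose uptake, 7 of 11 genes were counted, with 1 higher and 1 lower with SAHA. With ATRA+SAHA, 0 were higher and 2 lower (28.6%, against 12.6% of all counted genes), which were Myc (-1.70) and Prkaa1 (-1.11). Txnip, whose protein limits glucose uptake, was at 6.30, 69.5 and 18.5 FPKM with ATRA, SAHA and ATRA+SAHA, against 9.71 FPKM with vehicle. Myc, an activator of Ldha and other glycolytic genes, was at 26.5, 6.97 and 13.1 FPKM with ATRA, SAHA and ATRA+SAHA, against 44.7 FPKM with vehicle.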

How the data were processed

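Ribosomal RNA was removed from total RNA, per the labels' protocols. Trimmomatic 0.32 and Cuffdiff, with the build mm10, are named in the submitters' processing notes. For the aligner, the Cuffdiff version, the annotation and the scaling, the sources used here name nothing. The deposited unit is FPKM, per the file headers, with a column for each library. No test was run, since a group had 1 library.

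From these values, log2 ratios of FPKM + 1 were computed with Python 3.11.15, pandas 2.3.3 and numpy 2.4.6. Counted genes averaged 1 FPKM or more. The calling rule was tested on simulated data. Depth was estimated from the lowest steps of FPKM times transcript length, taking the first step as 1 fragment. Start coordinates of loci were shifted by 1 base to count from 1. Symbols read as dates filled 27 rows, none of them used here. The members and lists (155 symbols, 154 in the table) were chosen with earlier results of these data known. All 35 members were described. Of the lists, genes were named from up to 4 with the largest differences and at least 5 FPKM in the higher library, plus the HIF partners, Pdk genes, Myc and Txnip whatever their values. Eno2 and Spsb2 were named after their values were seen, as were Pgk2, Pitrm1, Siah1a and Siah2. A result on the further HIF targets is not reported here. A planned comparison of isozyme protein sequences was not run. Alternatives were a pseudocount of 0.1, no filter, a mean of at least 5 FPKM, and 3 scalings (median centring, upper quartile, and the total without the 10 highest rows and small RNAs).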

Additional observations from a re-analysis of the deposited data

Results flagged for a closer look

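Slc16a3 and Ndrg1 had opposite ATRA contrasts without and with SAHA and a departure from additivity of at least 1 on the log2 scale. Each contrast rests on 1 library a side, and the difference was not tested. Slc16a3, the lactate exporter gene, stood at 0.36 for ATRA against vehicle and at -0.84 for ATRA+SAHA against SAHA, a departure of -1.20. Ndrg1 stood at -1.001 for ATRA against vehicle and at 0.38 for ATRA+SAHA against SAHA, a departure of 1.38. With the libraries set to the same total without the 10 highest rows and small RNAs, the departure of Ndrg1 was 0.98 and its ratio of ATRA+SAHA to SAHA was -0.16, so that its contrasts no longer had opposite signs.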

How the results depend on the processing

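No paired analysis was possible because each group had 1 library, and leaving out a library leaves no comparison. Single values were compared for members and comparisons that passed the 2-fold mark in at least 1 setting. Across the 6 alternatives, 283 of 329 such values stayed on the same side of the mark. A further 35 newly passed it, 11 no longer did, and 0 values past the mark changed sign. The settings with no filter and with a mean of at least 5 FPKM cannot change a single value. Their 58 and 39 values were therefore the same by construction and say nothing about stability. Calls that held under every alternative that could be computed for them include those of Slc16a1, Tpi1, Vegfa and Ndrg1 with SAHA and all 8 with ATRA+SAHA against vehicle.

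Percentages in brackets below are the shares of all counted genes at the same setting. Counts of members lower than vehicle with SAHA (9) were 12 with a pseudocount of 0.1 (22.6%) and 7 with a mean of at least 5 FPKM (20.1%). They were 7 with median centring (13.4%) and 6 with the same upper quartile (13.3%). Those with ATRA+SAHA (8) were 7 with a mean of at least 5 FPKM (13.8%) and 10 with the same total (15.4%). They were 9 with median centring (13.4%) or the same upper quartile (13.5%). Those of ATRA+SAHA against ATRA (11) were 13 with a pseudocount of 0.1 (17.7%) and 8 with a mean of at least 5 FPKM (14.2%). They were 11 with median centring (12.6%), the same upper quartile (12.6%) and the same total (11.8%). The counts that moved further follow. With a pseudocount of 0.1, 2 in place of 1 were higher with SAHA against vehicle (12.8%). At that setting, 2 in place of 0 were higher (17.2%) and 13 in place of 8 lower (18.0%) with ATRA+SAHA against vehicle. For ATRA+SAHA against SAHA, 1 in place of 0 was lower (2.15%), and for ATRA+SAHA against ATRA, 1 in place of 0 was higher (16.4%). The departure from additivity had 2 in place of 1 in each direction (8.55% higher and 3.19% lower). With a mean of at least 5 FPKM, which leaves 22 members, 0 were higher with SAHA (11.4%). With median centring, 2 had a departure of -1 or less (2.47%). With the same upper quartile, 1 was lower with ATRA+SAHA against SAHA (1.497%) and 2 had a departure of -1 or less (2.66%). With the same total without the 10 highest rows and small RNAs, 2 were higher (16.9%) and 4 in place of 9 lower (10.5%) with SAHA. Under that scaling 5 were lower with ATRA+SAHA against SAHA (4.82%). The departure there was 1 or more for 0 members (2.495%) and -1 or less for 6 (4.93%). That scaling multiplied the SAHA library by 1.38 and the vehicle library by 1.003. Over all counted genes, the share of SAHA calls that were higher was 33.0% in the deposited scale, 43.2% after median centring, 44.7% with the same upper quartile and 61.6% with the same total. For ATRA+SAHA against SAHA these shares were 76.6%, 63.2%, 57.4% and 23.0%, and for the departure from additivity 73.1%, 57.1%, 55.3% and 33.6%. For ATRA+SAHA against vehicle the share was 46.7% in the deposited scale and 33.4% with the same total. Why the scalings differ was not tested. Depth limits Adm and Pfkfb3, which stayed below 0.3 FPKM in every library.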
